A study of Mus musculus with 6 samples.

Results

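The genes described here are the cathepsins, the subunits of the vacuolar proton pump (V-ATPase) and the lysosome-associated membrane proteins (LAMPs). They were taken by name from the deposited gene table of a poly(A)-selected RNA sequencing study of mouse cranial bone: symbols of the form Cts plus a letter, symbols beginning with Atp6v, and Lamp plus a digit. In all, 40 of the 28802 genes in the table were taken. They were 13 cathepsins, 13 genes of the V1 sector of the pump, 9 genes of its V0 sector, 4 LAMP genes and 1 processed pseudogene of a V0 subunit.

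The study had 6 libraries, 3 of a metformin scaffold group and 3 of a control group. The metformin scaffold group carried metformin, a biguanide used against type 2 diabetes, at 500 µM in a composite of α-CSH (a calcium sulfate) and nHA (hydroxyapatite). The control group is labelled 0 µM. The labels describe a skull defect of 5 mm as the model and give cranial bone as the source of all 6 libraries, without strain or age, and they do not state whether the control had the composite without drug. Nor do they say whether the RNA came directly from tissue or from cultured cells, or whether replicates were separate animals, so the p-values measure only the spread between these libraries, which may be technical.

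Lysosomes break down proteins, lipids and sugars at acid pH. The V-ATPase pumps protons into them: its V1 sector sits on the cytosolic side and hydrolyses ATP, and its V0 sector sits in the membrane and carries the protons. Cathepsins are the lysosomal proteases, most of them matured and active at acid pH, and LAMP proteins coat the inner face of the lysosomal membrane. In bone the same machinery is best known from the osteoclast, the resorbing cell of the monocyte lineage, which moves pumps with the a3 subunit (Tcirg1) and the d2 subunit (Atp6v0d2) to its ruffled border and secretes cathepsin K, a collagen-degrading protease, onto the matrix.

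A shared sequence feature of lysosomal genes is the E-box-like element bound by TFEB and its relatives, whose core is CACGTG and whose longer form TCACGTGA contains that core. Both are their own reverse complement, so 1 search covers both strands. RefSeq promoters on GRCm38.p6, each 300 bases long (250 before the start site and 50 after), were found for 30 of the 40 genes. CACGTG occurred in a promoter of 9 of these 30 (30.0%), against 8.09% of all 27025 genes with a promoter in that table. TCACGTGA occurred in 5 of 30 (16.7%), against 1.12% of all genes. Of the 17 genes with a promoter and a mean level of at least 1 FPKM (fragments per kilobase of transcript, scaled to the size of the library), 8 held CACGTG, and of the 13 below that level 1 did, Ctsf. The row of Ctsf in the table names no coding transcript, so its place below that level is uncertain. The share among all genes on each side of that level was not counted, so this split is not shown to be particular to the members. The 110 bases before the start site are printed for Lamp1, Ctsd, Atp6v0b and Ctsa, high members with the core close to the start site, and for Ctsk, a high member in whose window it was not found. Capitals mark CACGTG.

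Lamp1, chr8:13159051-13159160, plus strand: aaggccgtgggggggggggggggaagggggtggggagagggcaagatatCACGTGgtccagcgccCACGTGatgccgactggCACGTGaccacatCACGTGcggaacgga
Ctsd, chr7:142387828-142387937, minus strand: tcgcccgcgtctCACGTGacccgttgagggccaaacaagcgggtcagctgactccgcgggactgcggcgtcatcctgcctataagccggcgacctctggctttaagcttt
Atp6v0b, chr4:117887330-117887439, minus strand: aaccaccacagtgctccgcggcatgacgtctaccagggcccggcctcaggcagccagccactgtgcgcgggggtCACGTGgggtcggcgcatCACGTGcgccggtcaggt
Ctsa, chr2:164833663-164833772, plus strand: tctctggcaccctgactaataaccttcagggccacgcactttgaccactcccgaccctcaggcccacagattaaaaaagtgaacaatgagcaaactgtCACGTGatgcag
Ctsk, chr3:95499100-95499209, plus strand: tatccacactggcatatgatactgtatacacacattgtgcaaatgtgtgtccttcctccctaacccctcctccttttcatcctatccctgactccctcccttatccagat

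Lamp1 held 4 copies of the core in this stretch, Atp6v0b 2, Ctsd 1 and Ctsa 1, and the single copies of Ctsd and Ctsa lay within TCACGTGA. A match describes the letters only and is not evidence of a bound site.

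Total estimated counts ran from 64683314 to 70955139 in metformin scaffold libraries and from 63174927 to 70318881 in control libraries, and the 40 genes took 0.494% to 0.526% of them. Osteoblast genes stood high, with 15 of 17 listed markers reaching a mean of 1 FPKM and the collagen gene Col1a1 at a mean of 2168 FPKM, whereas blood and marrow markers were near the floor: 0 of 11 measured markers of neutrophils and mast cells, 0 of 7 of T, NK and B cells and 0 of 9 of red cells reached 1 FPKM. Of the macrophage and monocyte list 2 of 16 did, Lyz2 (8.69 FPKM) and Cd14 (2.26 FPKM), and of the endothelial list 1 of 12, Flt1 (7.70 FPKM); the next endothelial gene, Eng, stood at 0.644 FPKM. Of 5 placental genes, Prl2c2 (2.42 FPKM) reached 1 FPKM and Syna was next (0.404 FPKM). In the fibroblast and periosteum list 10 of 12 did, led by Postn (2014 FPKM) and Col3a1 (514.1 FPKM). The summed levels of the osteoblast and periosteum lists differed between the groups. A sum is weighted to the highest genes of its list and does not show a shift of the whole list. The median log2 fold change of the tested genes was 0.29 in the osteoblast list and 0.0 in the periosteum list. The summed level of the osteoblast list was 8796 to 8972 FPKM in metformin scaffold libraries and 7276 to 8302 FPKM in control libraries, and that of the periosteum list, which holds Ctsk, 2837 to 2939 FPKM in metformin scaffold libraries and 3606 to 3776 FPKM in control libraries. In such bulk samples a change in the number of cells of a type and a change of RNA per cell cannot be told apart.

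The 40 genes fell into an abundant set and a near-silent set. A mean of at least 1 FPKM over all libraries was reached by 25 of them: 8 cathepsins, 8 V1 genes, 6 V0 genes, 2 LAMP genes and the pseudogene. The lowest of these was Ctso at 5.85 FPKM and the highest of the others was Atp6v1g2 at 0.771 FPKM, so no gene lay between these values. Levels per library were narrow among the abundant genes. On the log axis of the plot of levels by library, the metformin scaffold and control points of each lie close together. That axis hides small separations, such as those of Ctsb, Ctso and Ctsk, whose groups did not overlap.

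**Figure D1:**
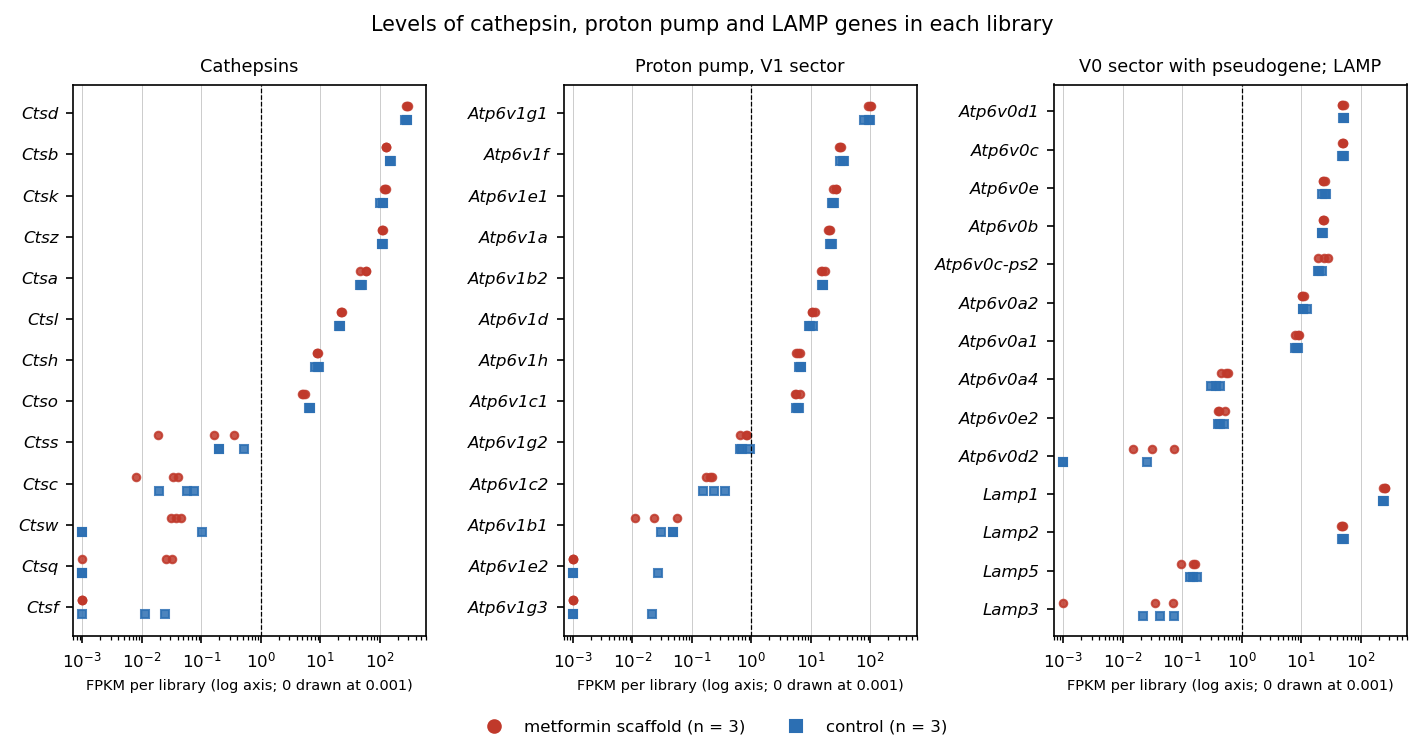
Level of each of the 40 genes in FPKM (log axis, values of 0 drawn at 0.001) in the 3 metformin scaffold libraries (circles) and the 3 control libraries (squares), ordered by mean level within the cathepsins, the V1 sector, the V0 sector with its pseudogene, and the LAMP genes. The dashed line marks 1 FPKM; 25 genes lie to its right and 15 to its left.

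Ctsd was the highest cathepsin. It encodes cathepsin D, an aspartic protease (ENSMUSG00000007891, chromosome 7, 142375911 to 142388038, minus strand, GRCm38). Its levels were 280.2, 291.7 and 298.3 FPKM in metformin scaffold libraries, against 266.5, 286.2 and 287.6 FPKM in control libraries. The groups overlapped, and the log2 fold change was 0.09 ± 0.06 (SE; edgeR adjusted p = 0.468). Ctsd ranked 113th of 28802 genes by mean FPKM.

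After Ctsd came 3 cathepsins at similar levels: Ctsb, Ctsk and Ctsz. Ctsz, cathepsin Z, a lysosomal carboxypeptidase (ENSMUSG00000016256, chromosome 2, 174427493 to 174439039, minus strand), averaged 111.2 ± 1.64 FPKM in metformin scaffold and 110.6 ± 0.489 in control (SD, n = 3 each). The ratio of Ctsk to Ctsz was 1.10, 1.07 and 1.14 in metformin scaffold libraries and 0.902, 1.01 and 1.01 in control libraries. Ctsk therefore stood above Ctsz in 3 of 3 metformin scaffold libraries, while in control the order varied with the library. Below them, Ctsa averaged 51.4 FPKM, Ctsl 21.9, Ctsh 8.87 and Ctso 5.85 over all libraries. Ctsa is a serine carboxypeptidase that also protects the lysosomal enzymes neuraminidase and beta-galactosidase, Ctsl a broad endopeptidase and Ctsh an aminopeptidase.

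Ctsk was expressed at a high level while osteoclast and leukocyte genes were largely near the floor. Ctsk (ENSMUSG00000028111, chromosome 3, 95499256 to 95509362, plus strand) had 121.4, 118.6 and 128.7 FPKM in metformin scaffold libraries, against 100.3, 111.5 and 111.5 FPKM in control libraries, which placed it 290th of 28802 genes. Ptprc, the common leukocyte antigen CD45, had 0.00735, 0.00251 and 0.0112 FPKM in metformin scaffold and 0.00467, 0.00277 and 0.0125 in control. Acp5, the tartrate-resistant acid phosphatase of osteoclasts, had 0.0367, 0 and 0.0254 FPKM in metformin scaffold and 0.0702, 0.0172 and 0.166 in control.

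The receptors that mark osteoclasts and their precursors were likewise low. Csf1r, the receptor for M-CSF, averaged 0.142 FPKM in metformin scaffold and 0.170 in control. Tnfrsf11a, the receptor RANK, averaged 0.00472 FPKM in metformin scaffold and 0.00554 in control. Calcr, the calcitonin receptor, was listed at 0 in the 3 metformin scaffold libraries and in 2 of the 3 control libraries, with 0.00690 FPKM in the remaining one. Atp6v0d2 had 0.0150, 0.0715 and 0.0308 FPKM in metformin scaffold libraries and 0, 0 and 0.0257 FPKM in control libraries, which rests on at most 16 counts in a library. Ocstamp, a cell fusion gene, was listed at 0 in all 3 metformin scaffold libraries and had at most 0.0283 FPKM in control.

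Neither list was uniformly silent. Of 16 osteoclast markers measured, 6 reached 1 FPKM: Ctsk itself, Clcn7 (12.6 FPKM), Tcirg1 (10.3 FPKM), Mmp9 (6.97 FPKM), Nfatc1 (4.68 FPKM) and Itgb3 (2.28 FPKM). The summed level of that list was 157.8 to 166.4 FPKM in metformin scaffold libraries and 139.0 to 149.6 FPKM in control libraries, most of it Ctsk. Of 15 leukocyte markers, 1 reached 1 FPKM, Arhgdib (100.7 FPKM), and the next was Fcer1g at 0.641 FPKM. Mmp9, the gelatinase of osteoclasts and other cells, had 6.22, 6.18 and 6.07 FPKM in metformin scaffold, against 7.65, 8.49 and 7.21 FPKM in control (log2 fold change -0.30 ± 0.08, SE; edgeR adjusted p = 0.0491). Trem2, a receptor of macrophages and osteoclasts, averaged 0.969 FPKM in metformin scaffold and 0.537 in control (log2 fold change 0.89, edgeR adjusted p = 0.0167), and the other 6 tested genes of the osteoclast list did not pass.

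**Figure D2:**
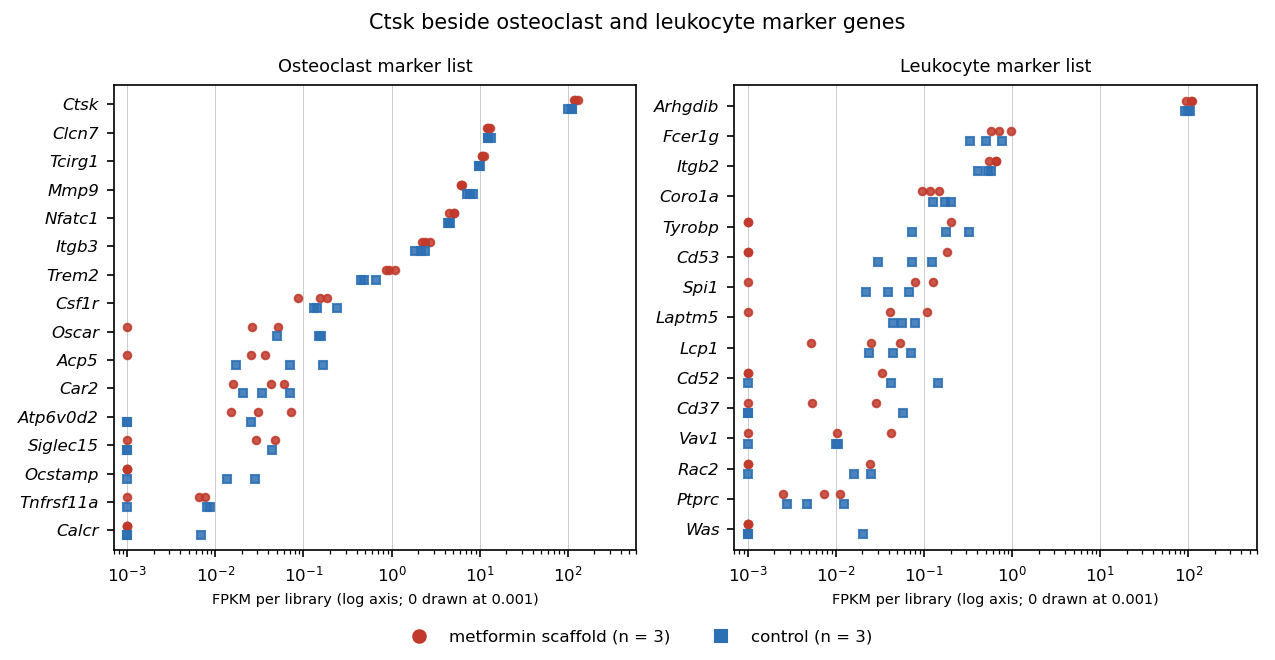
Level in FPKM (log axis, values of 0 drawn at 0.001) of each measured gene of the osteoclast list (left) and the leukocyte list (right) in the 3 metformin scaffold libraries (circles) and 3 control libraries (squares). Ctsk, at 100.3 to 128.7 FPKM, lies at the top of the left panel, and Acp5, Ocstamp, Tnfrsf11a and Calcr lie below 0.2 FPKM in every library.

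The cathepsins best known from blood cells or placenta were near the floor. Ctss, cathepsin S of antigen-presenting cells, starts 17423 bp downstream of Ctsk on chromosome 3 (95526786 to 95556403, plus strand). It had 0.357, 0.0188 and 0.163 FPKM in metformin scaffold libraries and 0.200, 0.196 and 0.531 in control libraries, so these neighbours differed greatly in level in each of the 6 libraries. Ctsc, the dipeptidyl peptidase that activates granule proteases, averaged 0.0270 FPKM in metformin scaffold and 0.0514 in control. Ctsw, known from NK and cytotoxic T cells, stayed at or below 0.103 FPKM, and Ctsq, a placental cathepsin of rodents, at or below 0.0319. Ctsf was listed at no more than 0.0249 FPKM. Its row, like that of Ctsw, names 3 retained-intron transcripts and no coding one, while GENCODE M21 has 3 coding transcripts of Ctsf and 2 of Ctsw. These 2 values may therefore not measure the coding messenger RNA, and how far they do was not tested.

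With the metformin scaffold, 2 cathepsins fell, Ctsb and Ctso, and no member of the whole set rose. Of the 40 genes 34 passed the filter on low counts and were tested, and 2 of 34 (5.88%) passed at an adjusted p under 0.05, both lower, against 4.31% of all 17375 genes tested (2.85% higher and 1.46% lower). The share among the members is thus near the background. At an unadjusted p under 0.05 the count was 7 of 34, against 18.1% of all tested genes. The median log2 fold change was 0.02 over the 34 members and 0.00 over all tested genes. With DESeq2, 3 members passed, Ctsb and Ctso lower and Ctsk higher, where 10.5% of the genes given an adjusted p passed.

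Ctsb, cathepsin B, a cysteine protease with endopeptidase and carboxypeptidase action (ENSMUSG00000021939, chromosome 14, 63122462 to 63145923, plus strand), had 125.3, 128.1 and 125.9 FPKM in metformin scaffold libraries, against 146.7, 150.7 and 154.1 FPKM in control libraries. The groups did not overlap, with every metformin scaffold library below every control library. In all, 3 tested members lay wholly lower in this way and 4 wholly higher, against 16.2% and 9.23% of all tested genes (25.4% in either direction). The fold change was 0.863 (95% interval 0.797 to 0.935; log2 fold change -0.21 ± 0.05, SE; edgeR adjusted p = 0.0463). Ctsb shares its locus with Fdft1, a cholesterol synthesis gene on the opposite strand, which was higher in metformin scaffold (10.9 ± 0.474 FPKM, against 8.64 ± 0.526 in control, SD, n = 3 each; edgeR adjusted p = 0.00974), and how strand was used in counting is not stated in the labels.

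Ctso, cathepsin O, a cysteine protease of the papain family (ENSMUSG00000028015, chromosome 3, 81932601 to 81956725, plus strand), had 4.87, 5.21 and 5.47 FPKM in metformin scaffold libraries, against 6.59, 6.33 and 6.61 FPKM in control libraries. The groups did not overlap. The fold change was 0.819 (95% interval 0.739 to 0.907; log2 fold change -0.29 ± 0.07, SE; edgeR adjusted p = 0.0357). Both calls lay close to the threshold. Ctsb kept its call without control replicate 1 (adjusted p = 0.0206) and lost it without each of the other libraries (adjusted p = 0.0718, 0.148 and 0.163 without metformin scaffold replicates 1, 2 and 3, and 0.162 and 0.179 without control replicates 2 and 3), and Ctso lost it without any 1 of the 6 libraries (adjusted p = 0.0541 to 0.134).

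Ctsk was 1.17-fold in metformin scaffold relative to control (95% interval 1.06 to 1.29; log2 fold change 0.23 ± 0.06, SE) and did not pass with edgeR (adjusted p = 0.0746), although its groups did not overlap. It passed with DESeq2 (adjusted p = 0.00605). The ratio of Ctsk to Ctsb within a library, which does not depend on how libraries are scaled, was 0.969, 0.925 and 1.02 in metformin scaffold libraries, against 0.683, 0.740 and 0.724 in control libraries. The 2 groups of ratios did not overlap. The levels of the 2 genes fixed this outcome. In every metformin scaffold library Ctsk was higher and Ctsb lower than in every control library. The ratios are therefore not separate evidence of a change. With 3 libraries against 3 an exact two-sided permutation test cannot give a p below 0.1. As a share of the summed FPKM of the 13 cathepsins, Ctsk made up 16.6% ± 0.515 in metformin scaffold and 14.7% ± 0.422 in control (SD, n = 3 each), and Ctsb 16.5% to 17.4% in metformin scaffold libraries and 20.2% to 20.8% in control libraries.

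The summed level of the cathepsins was 719.9, 742.6 and 763.6 FPKM in metformin scaffold libraries and 706.6, 744.6 and 751.3 FPKM in control libraries, and these overlapped. Among the remaining cathepsins Ctsa and Ctsl had positive values that did not pass: 0.22 ± 0.09 for Ctsa (adjusted p = 0.208) and 0.13 ± 0.05 for Ctsl (adjusted p = 0.199; log2 fold change ± SE, edgeR). Ctsa passed without metformin scaffold replicate 1 (0.32 ± 0.06, edgeR adjusted p = 0.0159). That library had 46.6 FPKM, against 57.6 and 59.6 in the other metformin scaffold libraries. Ctsa shares its locus with Neurl2 and Pltp on the opposite strand. Pltp averaged 118.8 FPKM in metformin scaffold and 137.1 in control (edgeR adjusted p = 0.199), and the use of strand in counting is not stated. Some markers of osteoblasts and of fibroblasts and periosteum passed in the same contrast. Of 16 tested osteoblast and osteocyte genes 10 rose and 0 fell. Of 12 fibroblast and periosteum genes 0 rose, 9 did not pass and 3 fell, among them the highest of that list, Postn. The median log2 fold change of these 12 was 0.0. Over all tested genes 2.85% rose and 1.46% fell. Their part in the cathepsin values was not tested.

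**Figure D3:**
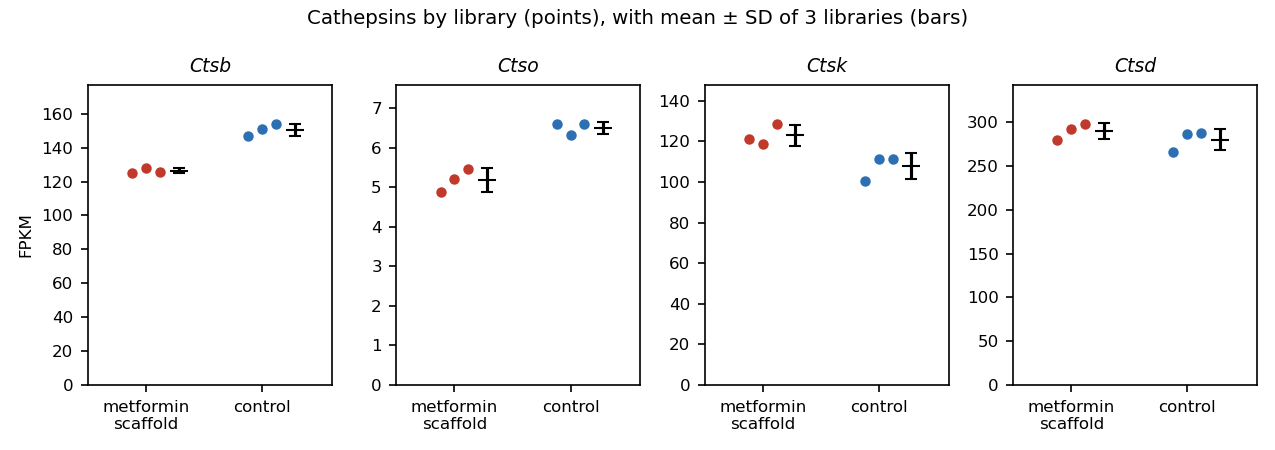
FPKM of Ctsb, Ctso, Ctsk and Ctsd in each of the 3 metformin scaffold libraries (left of each panel) and 3 control libraries (right), with mean ± SD beside the points and the axis starting at 0. For Ctsb and Ctso each metformin scaffold library lies below each control library, for Ctsk each lies above, and for Ctsd the groups overlap.

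The pump was expressed as the set of paralogues found in most cell types. For 6 of the 7 subunits encoded by several genes, 1 paralogue made up nearly all of the summed FPKM in every library. Atp6v1b2 made up 99.6% to 99.9% of the B subunit, which shares the nucleotide-binding sites with subunit A, against Atp6v1b1 of kidney and inner ear. Atp6v1e1 and Atp6v1g1, of the peripheral stalks, made up nearly all of E, where Atp6v1e2 reached at most 0.107%, and 98.8% to 99.4% of G, and Atp6v1c1, which links the stalks to the membrane sector, 94.3% to 97.6% of C. In the V0 sector Atp6v0d1, which joins the rotor to the proteolipid ring, made up nearly all of d, with the osteoclast paralogue Atp6v0d2 at no more than 0.138%, and Atp6v0e made up 97.8% to 98.4% of e.

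The a subunit, which forms the path for protons and steers the pump to its membrane, was the exception. Tcirg1, the a3 paralogue, lies outside the naming rule but was counted for this share. Atp6v0a2 made up 34.7% ± 0.580 of the a subunit in metformin scaffold and 37.5% ± 1.52 in control, Tcirg1 35.1% ± 0.859 in metformin scaffold and 33.0% ± 1.65 in control, and Atp6v0a1 28.4% ± 1.21 in metformin scaffold and 28.3% ± 0.885 in control (SD, n = 3 each). The share of Atp6v0a4, the kidney paralogue, was 1.54%, 1.87% and 1.78% in metformin scaffold libraries and 1.39%, 1.27% and 1.04% in control libraries. Its level was 0.447, 0.599 and 0.545 FPKM in metformin scaffold and 0.434, 0.375 and 0.301 in control. The groups did not overlap, but the change did not pass (log2 fold change 0.56 ± 0.20, SE; edgeR adjusted p = 0.163).

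**Figure D4:**
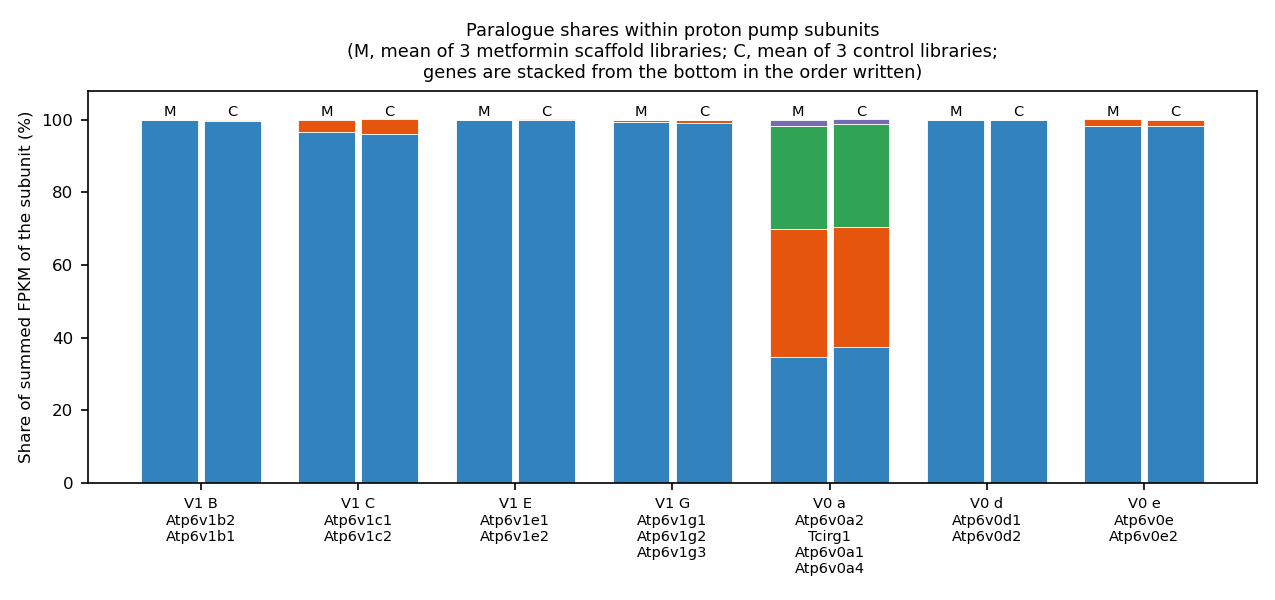
Share of the summed FPKM of each pump subunit that came from each of its paralogous genes (%), as the mean of 3 metformin scaffold libraries (M, left bar) and of 3 control libraries (C, right bar). In 6 of the 7 subunits a single gene fills over 94% of both bars, and the a subunit is divided among Atp6v0a2, Tcirg1 and Atp6v0a1.

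No pump gene passed the test. Of 22 V1 and V0 genes, 19 were tested and 0 passed with edgeR, against 4.31% of all tested genes. With so few genes, a count of 0 is near that share. An unadjusted edgeR p under 0.05 was found for 2, Atp6v0a4 and Atp6v1e1, against 18.1% of all tested genes. With DESeq2 0 passed, against 10.5% of the genes given an adjusted p. The median log2 fold change of the 19 was 0.02. For the 14 pump genes at 1 FPKM or more the values ran from -0.12 to 0.17. For 13 of them the whole 95% interval of the fold change lay between 0.8 and 1.25. Such an interval was found for 59.4% of all tested genes at 1 FPKM or more and 40.6% of tested genes at any level. The lowest of the 14, Atp6v1c1, averaged 5.96 FPKM. The share among genes from that level up was not counted, so narrow intervals are not shown to be particular to the pump. At 1 FPKM or more the members that passed were 2 of 25 in all families, against 5.71% of such genes. The exception among the 14 pump genes was Atp6v1d, a subunit of the central rotor, whose interval was 0.996 to 1.26. The intervals, not the missed threshold, bound the size of a change, but only for the spread between these libraries, which may be technical. They are not adjusted for the number of genes.

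Among V1 genes, Atp6v1g1 was the highest (ENSMUSG00000039105, chromosome 4, 63544772 to 63550750, plus strand), with 102.3, 90.8 and 97.9 FPKM in metformin scaffold libraries, against 79.4, 96.6 and 99.9 FPKM in control libraries. Control replicate 1 was the lowest of the 6 libraries, and the groups overlapped. Atp6v1f, of the rotor, averaged 31.3 ± 0.951 FPKM in metformin scaffold and 34.3 ± 3.04 in control. Atp6v1e1 averaged 25.5 ± 1.36 FPKM in metformin scaffold and 23.8 ± 1.32 in control, and Atp6v1a, the catalytic subunit, 20.2 ± 0.545 FPKM in metformin scaffold and 21.9 ± 0.706 in control (SD, n = 3 each). The lowest of the abundant V1 genes, Atp6v1h, a regulator of ATP hydrolysis, and Atp6v1c1 averaged 6.43 and 5.96 FPKM over all libraries. Messenger RNA levels of subunits that share 1 complex thus ran from 5.96 to 94.5 FPKM.

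In the V0 sector Atp6v0d1 and Atp6v0c, which encodes the c subunit of the proteolipid ring, were highest. Atp6v0d1 (ENSMUSG00000013160, chromosome 8, 105524465 to 105566047, minus strand) had 48.4, 51.7 and 49.1 FPKM in metformin scaffold, against 50.1, 53.2 and 52.5 FPKM in control. Atp6v0c (ENSMUSG00000024121, chromosome 17, 24163866 to 24169702, minus strand) had 50.3, 47.9 and 50.2 FPKM in metformin scaffold, against 48.8, 49.6 and 51.7 FPKM in control. For both, the groups overlapped, and the log2 fold change was -0.02 ± 0.05 for Atp6v0d1 (edgeR adjusted p = 0.871) and 0.02 ± 0.05 for Atp6v0c (edgeR adjusted p = 0.887).

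The processed pseudogene Atp6v0c-ps2 on chromosome 6 (37806086 to 37806550, plus strand) was listed at 19.4, 24.3 and 28.7 FPKM in metformin scaffold libraries and 18.9, 20.3 and 22.4 FPKM in control libraries. Reads of a processed copy and its parent cannot be told apart with certainty, so the split between Atp6v0c and Atp6v0c-ps2 is uncertain. With both counts added, the log2 fold change was 0.036 ± 0.055 (SE; edgeR adjusted p = 0.795). Atp6v0e and Atp6v0b, the small e subunit and the c'' proteolipid, averaged 24.4 and 23.1 FPKM over all libraries. Atp6v0b had 23.8, 23.6 and 23.4 FPKM in metformin scaffold, against 22.9, 22.4 and 22.7 FPKM in control, which did not overlap, and its log2 fold change of 0.09 ± 0.05 did not pass (edgeR adjusted p = 0.363).

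**Figure D5:**
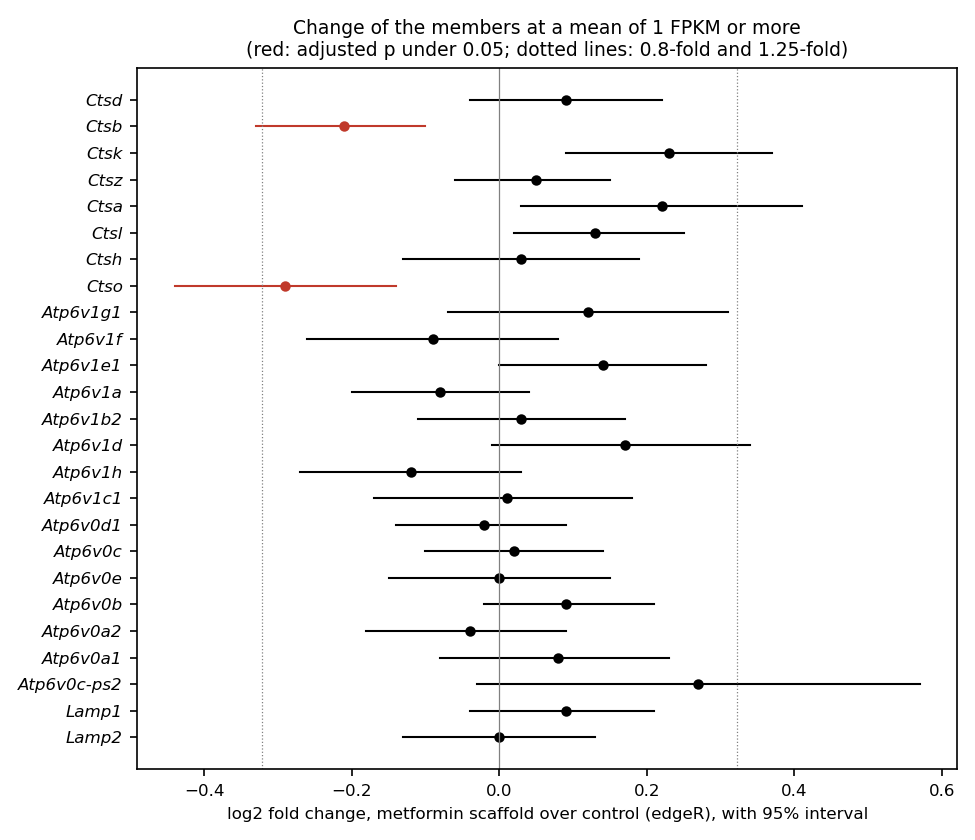
Log2 fold change of the 25 genes at a mean of 1 FPKM or more, metformin scaffold over control, with the 95% interval (edgeR); red marks an adjusted p under 0.05 and dotted lines mark 0.8-fold and 1.25-fold. Ctsb and Ctso lie left of 0 with their whole interval, and 13 of the 14 pump genes keep their interval between the dotted lines.

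Of the LAMP genes, Lamp1 and Lamp2 were abundant and neither passed the test. Lamp1 (ENSMUSG00000031447, chromosome 8, 13159161 to 13175338, plus strand), a main glycoprotein of the lysosomal membrane, had 232.7, 253.5 and 258.4 FPKM in metformin scaffold libraries, against 239.0, 240.1 and 242.0 FPKM in control libraries (log2 fold change 0.09 ± 0.06, edgeR adjusted p = 0.487). Lamp2, its relative with a role in chaperone-mediated autophagy (ENSMUSG00000016534, chromosome X, 38401357 to 38456454, minus strand), had 51.4, 46.5 and 48.9 FPKM in metformin scaffold, against 48.9, 52.4 and 49.8 FPKM in control (0.00 ± 0.06, edgeR adjusted p = 0.990). The groups overlapped for both, and the 95% intervals of the fold change were 0.971 to 1.16 and 0.911 to 1.09. The ratio of Lamp1 to Lamp2 was 5.09 ± 0.493 in metformin scaffold and 4.78 ± 0.170 in control (SD, n = 3 each).

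The other LAMP genes were near the floor. Lamp5, best known from neurons, averaged 0.137 FPKM in metformin scaffold and 0.154 in control, and Lamp3, best known from dendritic cells, 0.0354 FPKM in metformin scaffold and 0.0460 in control. Neither passed, and their 95% intervals were wide, at 0.499 to 1.67 for Lamp5 and 0.204 to 3.46 for Lamp3 as fold changes.

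Few other lysosomal genes passed. Of 217 further genes measured in 7 lists, 210 were tested, and 2 rose and 1 fell (1.43%, against 4.31% of all genes tested). At an unadjusted edgeR p under 0.05 the count was 53 of 210, against 18.1% of all tested genes, so the low share that passed does not mean that these genes moved less. Clcn5, an endosomal chloride and proton exchanger, had 1.20, 1.30 and 1.28 FPKM in metformin scaffold libraries, against 1.09, 1.03 and 0.979 FPKM in control libraries (log2 fold change 0.33 ± 0.08, edgeR adjusted p = 0.0466). Slc38a9, the arginine sensor of lysosomal mTORC1 signalling, had 0.719, 0.724 and 0.681 FPKM in metformin scaffold, against 1.05, 0.832 and 0.940 FPKM in control (-0.37 ± 0.09, edgeR adjusted p = 0.0490). Optn, an autophagy receptor, had 5.41, 6.66 and 6.65 FPKM in metformin scaffold, against 4.93, 4.34 and 4.78 FPKM in control (0.45 ± 0.09, edgeR adjusted p = 0.0194). The groups did not overlap for any of the 3. Clcn5 kept its call without metformin scaffold replicate 1 and lost it without each other library, Slc38a9 kept it without control replicate 2 alone, and Optn lost it without metformin scaffold replicate 2 or 3 or control replicate 2 or 3. The adjusted p over the 6 fits that leave 1 out ran from 0.0435 to 0.167 for Clcn5, 0.0402 to 0.187 for Slc38a9 and 0.00503 to 0.104 for Optn.

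By role, 0 of 54 tested lysosomal hydrolases passed with edgeR (median log2 fold change 0.02; 16 at an unadjusted p under 0.05, where 18.1% of all tested genes had one). The highest of them, Psap, the precursor of the saposins, averaged 449.1 FPKM in metformin scaffold and 462.0 in control. Of 21 tested partners of the pump, such as the accessory subunits Atp6ap1 and Atp6ap2, 1 rose and 0 fell (median 0.02). Of 34 membrane proteins and transporters, 0 rose and 1 fell (median -0.03). Of 19 genes that sort enzymes to the lysosome by their phosphorylated mannose, 0 passed (median 0.05; 4 at an unadjusted p under 0.05). Of 9 tested inhibitors of cysteine proteases, 0 passed (median 0.22; 3 at an unadjusted p under 0.05).

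Cst3, cystatin C, a secreted inhibitor of cysteine cathepsins, stood far above its targets. It had 2460, 2295 and 2487 FPKM in metformin scaffold libraries, against 2462, 2836 and 2963 FPKM in control libraries. The groups overlapped only through control replicate 1, and the change did not pass (log2 fold change -0.15 ± 0.08, edgeR adjusted p = 0.330). The ratio of Cst3 to Ctsk was 20.3, 19.4 and 19.3 in metformin scaffold and 24.6, 25.4 and 26.6 in control, without overlap, while that of Cst3 to Ctsb was 19.1 ± 1.04 in metformin scaffold and 18.3 ± 1.31 in control (SD, n = 3 each). Cst3, Psap and the ratios were chosen after their values were seen.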

How the data were processed

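Per the submitters' processing notes, bcl2fastq 2.20, fastp, HISAT2, StringTie, DESeq2 and edgeR were used, with no roles given; the build is not stated there. The authors deposited 1 table with an FPKM value, normalised by the authors for length and library size, and an estimated count for each gene and library. The deposited estimated counts are whole numbers that pile up at 4, 8 and 12 (31.8% to 33.6% of the values from 1 to 12, where an even spread would give 25%), so counts divided by 4 were tried as an alternative; what 1 read pair is worth is not stated. All value columns matched a library by name. Of the gene identifiers 99.7% were in GENCODE M21 (GRCm38), 90.6% of these with the same start and end, as for 35 of the 40 genes here; coordinates are printed for those.

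Counts were tested with edgeR 4.0.16 (R 4.3.3): filterByExpr with a minimum count of 10, TMM scaling, and the two-sided quasi-likelihood test over the whole table adjusted after Benjamini-Hochberg, calling genes at 0.05. The SE is the log2 fold change over the square root of F, and 95% intervals use the test's degrees of freedom. Alternatives were DESeq2 1.42.0, other scalings and filters, counts divided by 4, limma 3.58.1 on log2(FPKM + 1) and log2(FPKM + 0.1) at a mean of at least 1 FPKM, and leaving out each library. The edgeR, DESeq2 and limma steps were tested on simulated data. Levels are compared between genes in FPKM only.

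Members, lists and tests were chosen with earlier results of these data known. The rule for named genes took the members that passed, Ctsk, the 4 highest cathepsins, V1 and V0 genes, every LAMP gene, the highest paralogue of each subunit, members listed at 0, up to 3 genes that passed per list and direction, and the 2 highest genes and set osteoclast genes of the marker lists. Other genes named, such as Ctsa, Ctsl, Atp6v0a4, Atp6v1d, Trem2 and Fdft1, were chosen after their values were seen. The osteoclast list holds Ctsk, Atp6v0d2 and Tcirg1. The membrane list lacks the Laptm4 and Laptm5 genes. Protein sequences were not used here. Intervals cover the spread between these libraries only.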

Additional observations from a re-analysis of the deposited data

How the results depend on the processing

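The number of members that rose was 0, 1 with DESeq2, and 0 to 1 over the fits that leave out 1 library. The number that fell was 2, 0 without a filter on low counts, 0 with a replicate block, and 0 to 1 with 1 library left out. Of the other lysosomal genes 2 rose: 10 with DESeq2, 1 when scaled by library totals alone, 0 without a filter, 1 at a mean of at least 5 FPKM, 0 with limma at either pseudocount, 1 with limma and sample weights, and 0 to 7 with 1 library left out. Of these genes 1 fell: 3 with DESeq2, 2 when scaled by totals alone, 0 without a filter, 0 with limma at either pseudocount, 7 with sample weights, 0 with the replicate block, and 0 to 2 with 1 library left out. Without a filter more genes were adjusted for, and leaving out 1 library left fewer libraries. The causes of these differences were not tested. Over all genes 496 rose and 253 fell (66.2% higher), against 429 and 380 (53.0% higher) when scaled by totals alone. In either direction 4.31% of all tested genes passed with the main edgeR fit, and 10.5% of the genes given an adjusted p passed with DESeq2. For the remaining settings the share over all genes is not given here. Changes in these counts between settings are therefore not a result about lysosomal genes.

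Same-numbered libraries did not deviate together over these genes as a whole (correlations of -0.0217, 0.0195 and -0.0460 for replicates 1 to 3 over 13209 genes). What a replicate number stands for is not stated in the labels, and a shared factor acting on part of the genes was not tested. Under the replicate block Ctsb and Ctso had adjusted p of 0.0816 and 0.0552. Over all alternatives the adjusted p ran from 0.000279 to 0.179 for Ctsb, 0.00390 to 0.134 for Ctso and 0.00605 to 0.299 for Ctsk, and each kept its sign. Of 372 alternative values for 26 genes, 298 kept sign and side, 40 lost a call, 2 gained one and 32, in 8 genes, changed sign without passing in either setting. Scaled by totals alone, in limma at pseudocounts 1 and 0.1, and in limma with sample weights, the log2 values were -0.014, -0.017, -0.018 and -0.030 for Atp6v0c, -0.036, -0.035, -0.036 and -0.061 for Atp6v0e, -0.007, -0.012, -0.013 and -0.051 for Atp6v1b2, and -0.028, -0.030, -0.034 and -0.081 for Atp6v1c1. At a mean of at least 5 FPKM they were -0.017 for Atp6v0e and -0.011 for Atp6v1c1, with counts divided by 4 -0.006 for Atp6v0e, and without a filter 3.8e-05 for Lamp2. With 1 library left out the ranges were -0.076 to 0.017 for Atp6v0a2, -0.002 to 0.049 for Atp6v0c, -0.064 to 0.043 for Atp6v0e, -0.037 to 0.071 for Atp6v1b2, -0.070 to 0.059 for Atp6v1c1, -0.038 to 0.039 for Lamp2, -1.199 to 0.312 for Lamp3 and -0.292 to 0.080 for Lamp5. Depth limits the members below 1 FPKM.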

Other observations

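The regulators of lysosome formation were expressed at modest levels and did not pass the test. Tfe3, Mitf and Tfeb encode transcription factors that bind the CACGTG element. Mitf had 3.88, 3.82 and 4.09 FPKM in metformin scaffold libraries, against 3.72, 3.30 and 3.47 FPKM in control libraries, without overlap (log2 fold change 0.21 ± 0.07, SE; edgeR adjusted p = 0.142). Tfeb had 1.75, 1.70 and 1.77 FPKM in metformin scaffold, against 1.47, 1.55 and 1.67 FPKM in control, also without overlap (0.20 ± 0.10, edgeR adjusted p = 0.312). Tfe3 had 2.93, 3.53 and 3.47 FPKM in metformin scaffold, against 3.29, 2.98 and 3.18 FPKM in control, and its groups overlapped. Of the 27 tested genes of these factors and of the mTORC1 platform on the lysosome, 0 passed with edgeR, 7 had an unadjusted p under 0.05 (18.1% of all tested genes did), and the median log2 fold change was 0.07.

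Of 46 tested autophagy genes, 1 rose, Optn, and 0 fell, with 11 at an unadjusted p under 0.05, against the same 18.1% of all tested genes, and a median log2 fold change of 0.01. The highest was Gabarap, a ubiquitin-like protein of the autophagosome, at 128.2 FPKM in metformin scaffold and 109.5 in control (edgeR adjusted p = 0.0780), followed by the receptor Sqstm1 at 91.9 FPKM in metformin scaffold and 93.3 in control (edgeR adjusted p = 0.921). These genes were chosen after their values were seen.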
